A study of Mus musculus with 52 samples.

Results

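Promoter accessibility on mouse chromosome 3 was described across 4 conditional mouse embryonic stem cell (mESC) lines, with the 1036 chromosome 3 intervals out of 20633 promoter intervals in the deposited cATAC-seq tables as the members. The members were chosen by chromosome alone, but the chromosome itself was chosen from measured values, because its promoters took a larger share of reads in the Kdm2a-CXXC line than in the other lines. That contrast between lines, and every value that repeats it, is therefore given as a description and was not tested. Tests were made only between tamoxifen-treated and untreated cells within a line, which the choice did not use.

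In calibrated ATAC-seq (cATAC-seq) the Tn5 transposase inserts adapters into accessible DNA, and cells of the Drosophila SG4 line were mixed in as a spike-in. All 4 lines carry floxed Kdm2 alleles and a tamoxifen-inducible CreERT2, also in the untreated groups. In the Kdm2a/b-JmjC line (genotype Kdm2a/b-JmjCfl/fl, with the other genotypes written in the same way) the floxed exons encode the JmjC demethylase domain of both KDM2A and KDM2B, and the cells were derived from mice with a ROSA26-CreErt2 allele. In the Kdm2a/b-CXXC line the floxed exons encode the ZF-CxxC domain of both proteins, in the Kdm2a-CXXC line that of KDM2A and in the Kdm2b-CXXC line that of KDM2B. The Kdm2a-CXXC line was engineered by CRISPR in Rosa26::CreERT2 mESCs, and the Kdm2a/b-CXXC line by CRISPR in Kdm2b-CXXC mESCs, so those lines are related, and each engineered line is 1 clone or descends from one. Treated cells received 800 nM 4-hydroxytamoxifen for 96 h. Each treatment of a line has 3 ATAC libraries, or 4 in the case of Kdm2a/b-CXXC, making 26 libraries. The study's methods call the replicates biological, but the sources used here do not say whether they were separate cultures, so each p-value measures only the spread between these libraries.

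CpG islands are stretches of DNA rich in non-methylated CpG dinucleotides that cover most promoters of widely expressed genes and many promoters of developmental genes. KDM2A and KDM2B bind them through the ZF-CxxC domain, and their JmjC domain removes methyl groups from histone H3. Accessible promoters of this kind give most of the reads at transcription start sites in an ATAC library. The number of reads from a chromosome depends on how open each copy is and on how many copies the cells hold, and mESC cultures are known to gain whole chromosomes. The input genomic DNA of these cells is not analysed here, so openness and copy number cannot be told apart, nor can a shift in every cell and a larger shift in some of the cells.

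The members spanned chr3:3507830-159839894 (mm10) in intervals of 400 bp, and 998 of them had an annotated start site within 200 bp of the centre. Of these intervals, 510 were CpG-rich (49.2%), against 54.9% of the promoters on the other chromosomes. CpG-rich here means a GC fraction of 0.5 or more together with 0.6 or more of the CpGs that base composition predicts. The median member held 21 CpGs, against 24 over all promoters, and 98.5% of members and 98.9% of all promoters held at least 1. Sequence upstream of the start site is shown for the promoter that lay farthest above the chromosome's shift in Kdm2a-CXXC, for 2 that lay among the farthest below it, and for 2 of the 5 most accessible. The windows reach from the edge of the deposited interval to the base before the start site, 5′ to 3′ on the strand of the gene, and overlap no annotated exon. They were read from GRCm38.p6, the same build as mm10, and capitals mark each CpG dinucleotide.
Tmem79 (chr3:88334434-88334633, minus strand): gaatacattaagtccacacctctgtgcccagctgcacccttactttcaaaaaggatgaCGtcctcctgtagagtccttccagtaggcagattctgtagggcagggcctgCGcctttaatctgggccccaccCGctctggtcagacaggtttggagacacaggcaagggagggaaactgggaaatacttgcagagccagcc
Slc16a4 (chr3:107291092-107291229, plus strand): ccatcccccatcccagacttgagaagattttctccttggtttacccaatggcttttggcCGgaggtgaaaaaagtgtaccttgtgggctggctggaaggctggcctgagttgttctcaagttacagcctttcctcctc
Pde4dip (chr3:97888708-97888907, minus strand): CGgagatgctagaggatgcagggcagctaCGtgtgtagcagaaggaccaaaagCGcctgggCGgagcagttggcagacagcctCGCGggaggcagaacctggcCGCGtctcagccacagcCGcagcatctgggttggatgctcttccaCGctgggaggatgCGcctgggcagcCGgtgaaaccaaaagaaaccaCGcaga
Bcl10 (chr3:145924062-145924261, plus strand): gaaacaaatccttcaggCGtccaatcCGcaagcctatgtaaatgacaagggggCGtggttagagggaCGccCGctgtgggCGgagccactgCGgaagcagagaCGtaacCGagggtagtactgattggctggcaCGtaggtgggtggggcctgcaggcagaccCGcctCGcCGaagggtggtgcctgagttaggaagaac
Actl6a (chr3:32708346-32708545, plus strand): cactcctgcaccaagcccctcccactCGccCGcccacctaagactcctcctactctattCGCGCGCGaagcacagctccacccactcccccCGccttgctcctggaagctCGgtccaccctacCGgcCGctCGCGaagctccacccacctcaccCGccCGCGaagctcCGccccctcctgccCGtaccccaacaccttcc
The Bcl10 and Actl6a windows hold 13 and 17 CpGs over 200 bases, and the Pde4dip window holds 13. The Tmem79 window holds 3 over the same length, and the 138 bases shown for Slc16a4 hold 1. Tmem79 and Slc16a4 are not CpG-rich, so promoters poor in CpG stood at both ends of the range.

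Libraries held between 1.49 and 3.03 M reads over all promoters, of which 68251 to 166991 lay on chromosome 3, with a median of 75 to 174 reads per member that passed the filter on low values. Reads were scaled to 1000000 promoter reads per library, here called RPM. Because the 4 tables were calibrated separately, levels set across lines rest on this scaling and not on the spike-in. For marker genes the most accessible promoter of each was read, as the mean over the 8 groups. The 8 embryonic stem cell markers lay between 26.2 (Esrrb) and 112 RPM (Zfp42), with 4 of 8 above the median of 39.2 over all promoters and Pou5f1 below it at 36.7. Of the fibroblast markers 0 of 5 were above that median (3.23 to 33.5 RPM), of the primitive endoderm markers 1 of 4 (14.6 to 42.5) and of the trophoblast markers 2 of 4 (8.22 to 43.7). Accessible promoters of silent developmental genes are usual in mESCs, so these values describe accessibility and not expression.

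Chromosome 3 took a larger share of promoter reads in the Kdm2a-CXXC line than in any other. In its untreated libraries the share was 5.73%, 5.52% and 5.49%, and in its tamoxifen-treated libraries it was 5.62%, 5.62% and 5.46%. The means were 5.58% ± 0.132 (SD, n = 3) and 5.57% ± 0.0930 (SD, n = 3). In the 20 libraries of the other 3 lines the share lay between 4.38% and 4.63%, so no library of another line reached the lowest Kdm2a-CXXC library. The untreated and treated means of Kdm2a/b-JmjC were 4.45% ± 0.0743 and 4.50% ± 0.108 (SD, n = 3). Those of Kdm2b-CXXC were 4.59% ± 0.0312 and 4.59% ± 0.0380 (SD, n = 3), and 4 libraries each of Kdm2a/b-CXXC averaged 4.56% ± 0.0332 and 4.55% ± 0.0334 (SD). The spread within each group was smaller than the gap between Kdm2a-CXXC and the rest.

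**Figure D1:**
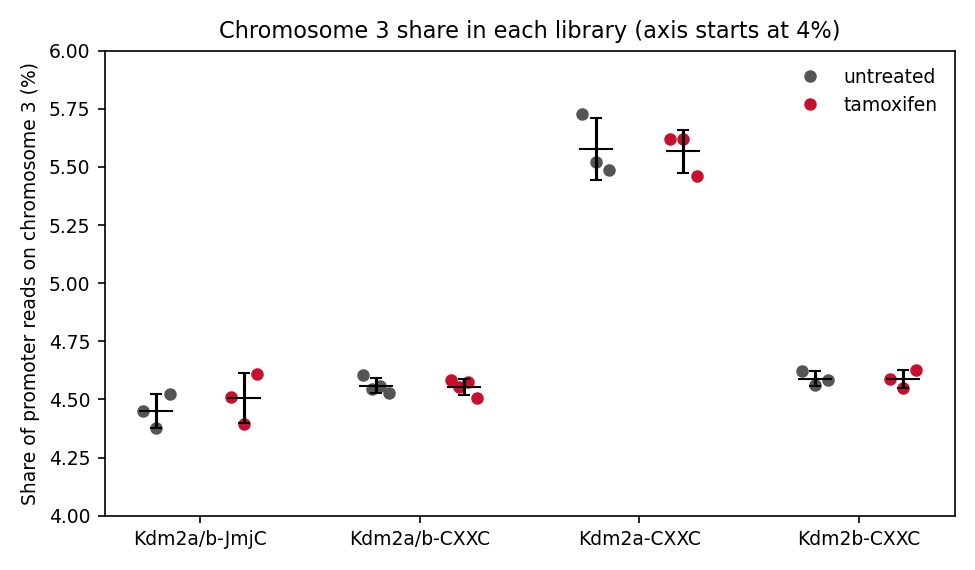
Share of all promoter reads that lay on chromosome 3 (%, axis from 4%) in each library (points) of the 4 lines, with the group mean and SD (bars); n is 3 per group and 4 in Kdm2a/b-CXXC. All 6 Kdm2a-CXXC libraries lie between 5.46% and 5.73%, above the 20 other libraries at 4.38% to 4.63%.

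Of the 1036 members, 824 (79.5%) reached a mean of 5 RPM over the 8 groups, against 83.2% of promoters on the other chromosomes, and only these enter the differences that follow. All 212 members below the limit were intervals outside the CpG-rich class, and none of them reached a group mean above 8.36 RPM. For each line, log2(RPM + 1) was compared with the mean of the other 3 lines at the same treatment, which understates differences at low values. The shift is the median of this log2 difference over chromosome 3 minus its median over the other chromosomes. It was 0.32 ± 0.03 (SD over libraries, n = 3) in untreated Kdm2a-CXXC cells and 0.31 ± 0.03 (SD, n = 3) in treated ones, a 1.25-fold and 1.24-fold higher level. Single Kdm2a-CXXC libraries ranged from 0.28 to 0.36, and the libraries of the other lines from −0.16 to −0.07.

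The negative shifts of the other lines follow from a reference that holds Kdm2a-CXXC, so lines were also set against each other in pairs. The difference of chromosome 3 from the rest of the genome between untreated Kdm2a-CXXC and Kdm2b-CXXC cells was 0.31. It was −0.34 for Kdm2a/b-JmjC minus Kdm2a-CXXC and −0.32 for Kdm2a/b-CXXC minus Kdm2a-CXXC. The remaining 3 pairs lay between −0.03 and −0.005, and between −0.009 and 0.006 after tamoxifen. The other 3 lines thus stood level with each other on this chromosome.

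The shift was broad among the members and not carried by a few. In untreated Kdm2a-CXXC cells 676 of 824 members (82.0%) lay above the median of the other chromosomes, with the lower and upper quartiles at 0.10 and 0.47 on the log2 scale. After tamoxifen 688 (83.5%) did. In the other lines between 25.5% and 34.1% of members lay above that median. The SD over single members in untreated Kdm2a-CXXC cells was 0.34, close to the 0.36 over promoters of the other chromosomes. Untreated, members thus varied among themselves about as much as promoters elsewhere, around a raised centre. After tamoxifen the SD was 0.30 over members, below the 0.36 elsewhere.

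Counted by promoter, 218 of the 824 members (26.5%) had all 3 untreated Kdm2a-CXXC libraries above all 10 untreated libraries of the other lines, where 4.43% of all 17128 promoters did. Chromosome 3 held 28.8% of all promoters with that pattern. In the treated libraries 195 members (23.7%) showed it, against 3.91% of all promoters. At both treatments 125 members (15.2%) did so, for which no share over all promoters is given. In the opposite direction 9 members (1.09%) had all untreated Kdm2a-CXXC libraries below all others, against 5.24% of all promoters, and 4 did after tamoxifen, against 4.36%. Since this contrast chose the chromosome, nothing further is read from these shares. For untreated Kdm2b-CXXC cells 6 members lay above (0.728%, with 0.642% over all promoters) and 8 below (0.971%, with 0.368%). For Kdm2a/b-CXXC cells 1 lay above (0.121%, with 2.21%) and 6 below (0.728%, with 0.66%), and for Kdm2a/b-JmjC cells 0 lay above, with 3.69% over all promoters, and 23 below (2.79%, with 1.56%).

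The shift ran along the whole chromosome. The 824 members were taken in order of position in 17 windows, 16 of 50 promoters and a last of 24. In untreated Kdm2a-CXXC cells the window medians lay between 0.20 and 0.39 (SD 0.05 over windows), and after tamoxifen between 0.23 and 0.37 (SD 0.04). Every window had all 3 Kdm2a-CXXC libraries above all 10 libraries of the other lines, at both treatments. Each library was set against the mean of the lines other than its own. The reference of those 10 thus held Kdm2a-CXXC, which lowers their values, and the count is given as a description. The Spearman correlation between position and the difference over the 824 members, which share libraries and are not independent, was 0.02 untreated and 0.01 after tamoxifen, given as a description.

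The lowest untreated window, from Rbm46os to Tmem79 at 82.9 to 88.3 Mb, stood at 0.20, with single libraries between 0.14 and 0.28. After tamoxifen the same window stood at 0.32, so it was not low in both sets. The highest untreated windows were the last, from 1700012D16Rik to Wls at 153.3 to 159.8 Mb (0.39), and the window from Tmem167b to F3 at 108.6 to 121.7 Mb (0.39), which stood at 0.31 and 0.27 after tamoxifen. The lowest treated window ran from Car14 to Spag17 at 95.9 to 99.9 Mb and stood at 0.23, against 0.30 untreated. The extreme windows thus differed between the treatments.

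Elsewhere in the genome of untreated Kdm2a-CXXC cells, 12 of 330 windows of the same size reached the lowest chromosome 3 window. Of these, 10 were among the 21 windows of chromosome 1 and 2 among the 12 of chromosome 14. The chromosome 1 windows ran from −0.46 to 0.90 (SD 0.40), with raised and lowered stretches side by side, unlike chromosome 3. The lines in the reference also ranged widely there, each against its own reference. Untreated, they ran from 0.17 to 0.55 in Kdm2a/b-JmjC, −0.60 to 0.02 in Kdm2a/b-CXXC and −0.57 to 0.09 in Kdm2b-CXXC. The stretches are thus not assigned to a single line. Windows of each line were also summarised for chromosomes 1, 8 and X. Among these, the pattern most like that of chromosome 3 was chromosome 8 in untreated Kdm2a/b-JmjC cells. Its 19 windows lay between 0.30 and 0.44 (SD 0.03). In the same cells chromosome X ranged from −0.03 to 0.56 (SD 0.25) over 10 windows. Chromosome 3 in the 3 other lines ranged from −0.20 to 0.002 untreated and from −0.21 to 0.06 after tamoxifen.

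**Figure D2:**
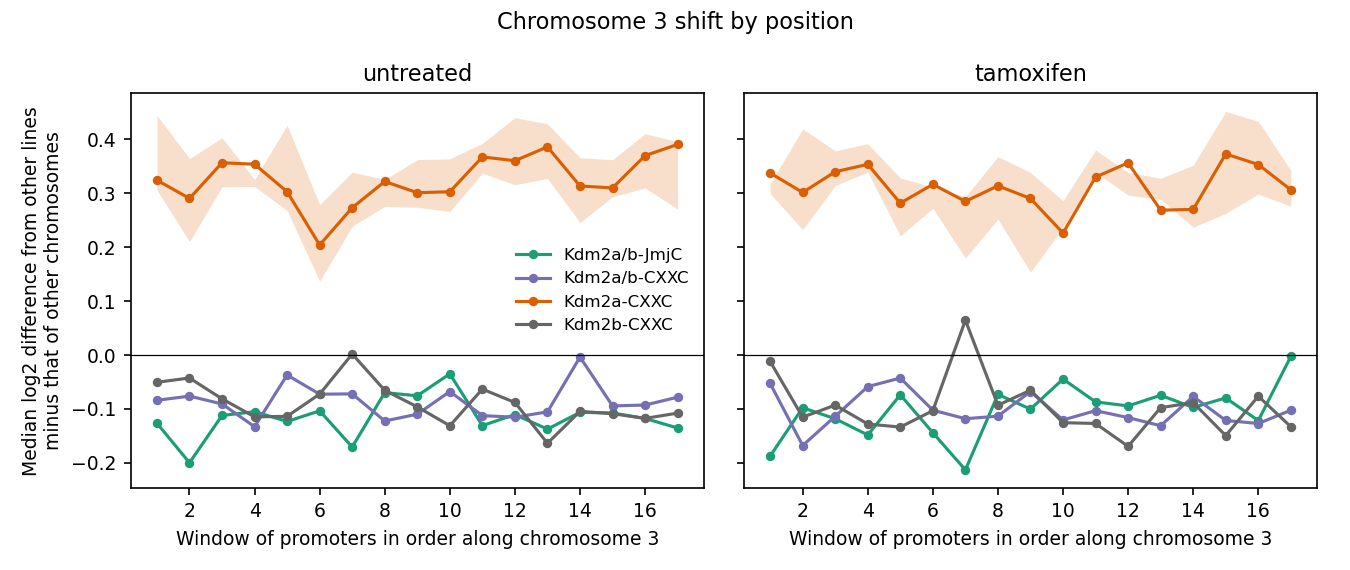
Median log2 difference of each line from the other 3 lines in 17 consecutive windows along chromosome 3, minus the median over the other chromosomes, without (left) and with tamoxifen (right); the shaded band is the range of single Kdm2a-CXXC libraries. The Kdm2a-CXXC line stays between 0.20 and 0.39 untreated and between 0.23 and 0.37 after tamoxifen, while the other lines stay at or below 0.06.

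Members were then grouped by mean accessibility, in 4 bins of equal size over all 17128 promoters with limits at 22.7, 51.4 and 84.2 RPM. In untreated Kdm2a-CXXC cells the median difference from the other lines on chromosome 3 was 0.01, 0.09, 0.30 and 0.40 from the least to the most accessible bin. On the other chromosomes the same bins stood at −0.24, −0.20, −0.04 and 0.05, so the line as a whole had lower values at weak promoters and higher values at strong ones. Against the same bin elsewhere, chromosome 3 was higher by 0.26, 0.29, 0.34 and 0.34, and by 0.24, 0.29, 0.32 and 0.34 after tamoxifen. Of the 201 members in the most accessible bin, 98.0% lay above the median of that bin elsewhere, and of the 202 in the least accessible 72.8% did.

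The CpG classes gave a similar picture. CpG-rich members were higher than CpG-rich promoters elsewhere by 0.35 untreated and 0.32 after tamoxifen, and the remaining members by 0.24 and 0.27. The gap between the classes was thus 0.11 untreated and 0.05 after tamoxifen, with 510 and 314 members. The log2(RPM + 1) scale compresses differences at weak promoters, and its part in the smaller values was not tested.

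**Figure D3:**
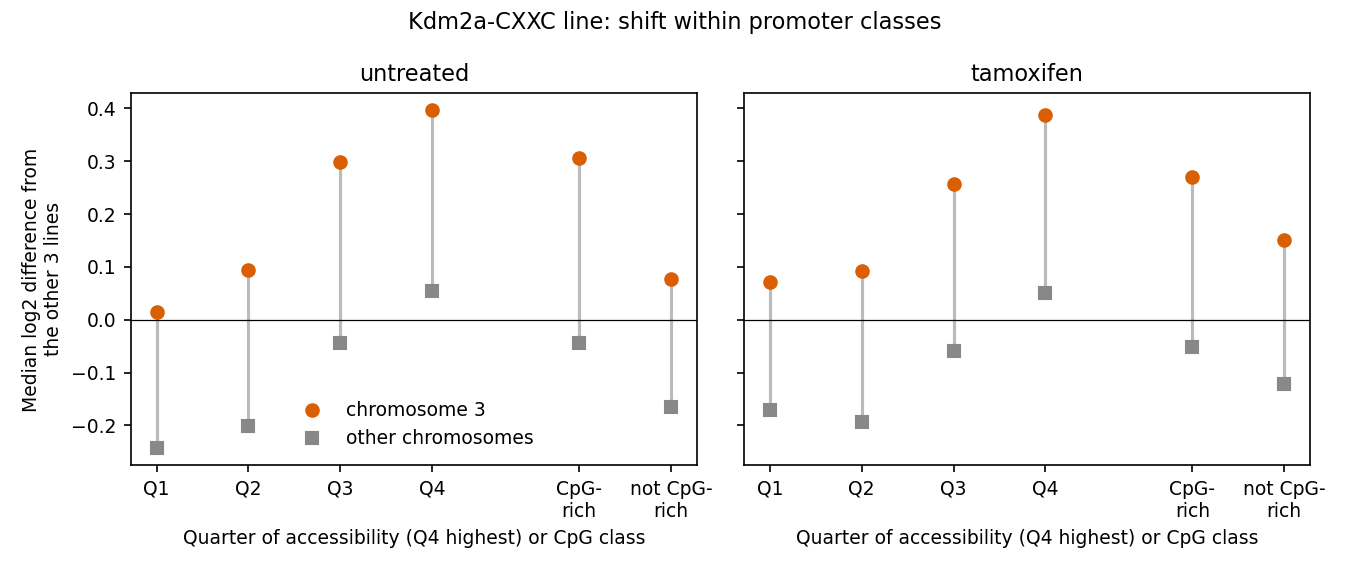
Median log2 difference of Kdm2a-CXXC from the other 3 lines for chromosome 3 promoters (circles) and promoters elsewhere (squares) in 4 bins of mean accessibility (Q1 lowest, Q4 highest) and CpG classes, without (left) and with tamoxifen (right). In each class chromosome 3 lies above the other chromosomes, by 0.26 to 0.34 in the untreated bins, and both sets are higher in Q4 than in Q1.

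The 5 most accessible members, ranked by the mean over the 8 groups, lay above the median of the other chromosomes in Kdm2a-CXXC. They were Rbm15, which encodes an RNA-binding protein of the RNA methylation machinery, Bcl10, a signalling adaptor, Actl6a, an actin-like subunit of chromatin remodellers, Acadm, an enzyme of fatty acid oxidation, and Ints3, an Integrator subunit. For Bcl10 the untreated Kdm2a-CXXC libraries gave 270, 226 and 265 RPM and the treated ones 236, 269 and 248, against 165 to 206 and 158 to 188 RPM in the other lines. For Actl6a they gave 273, 214 and 223 RPM and 228, 253 and 223, against 137 to 193 and 146 to 191. In both promoters every Kdm2a-CXXC library lay above every library of the other lines. Bcl10 and Actl6a were singled out after their values were seen, and overlap is not given for Rbm15, Acadm and Ints3. The shift of the 5 promoters was 0.47 to 0.62 untreated and 0.53 to 0.66 after tamoxifen. The mean that ranked them includes the Kdm2a-CXXC groups. On the other chromosomes the most accessible bin of this line stood at 0.05 untreated, against −0.08 over all promoters there. After tamoxifen these values were 0.05 and −0.07. The part of accessibility in the shift of the 5 promoters was not tested.

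Promoters that departed from the shift were sought among the 603 members with a mean of at least 25 RPM, using untreated libraries only. A departure is the log2 difference of a promoter from the other lines minus the chromosome 3 median of that difference. In Kdm2a-CXXC, 5 members departed by more than 0.5 upwards and 25 downwards, and 82 of the 603 lay below the mean of the other lines before any subtraction. Of the 5 and 25, the treated libraries put 5 and 24 on the same side, and 2 and 10 beyond 0.5 again. The share of promoters elsewhere that lay as far from their own median is not given, so nothing further is read from these counts. On the other chromosomes the untreated line stood at −0.24 in the least accessible bin and at 0.05 in the most accessible. The part of accessibility in the departures was not tested. The 6 farthest members on each side are described here, and the treated values are the ones their choice did not use. The 6th and 7th departures were 0.48 and 0.48 upwards and −0.81 and −0.79 downwards, so both limits fall within a continuous range.

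Tmem79, which encodes a membrane protein of keratinocytes, departed farthest upwards. Its untreated Kdm2a-CXXC libraries gave 79.0, 78.3 and 75.2 RPM and its treated ones 101, 73.0 and 68.7, against 26.3 to 45.4 and 20.9 to 47.6 RPM in the other lines. All 6 libraries lay above all 20 others, with departures of 1.00 untreated and 0.96 after tamoxifen. This promoter, at chr3:88334234-88334633, has 7 CpGs over its interval and ranked with the members outside the CpG-rich class.

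Mme, which encodes the membrane endopeptidase neprilysin, gave 165, 137 and 154 RPM untreated and 162, 164 and 181 after tamoxifen, against 69.3 to 106 and 73.3 to 113 in the other lines. Its departure was 0.54 untreated and 0.71 after tamoxifen, with no overlap between lines at either treatment. For Lrif1, a nuclear receptor interacting factor, the promoter of NM_001039488 gave 203, 186 and 179 RPM untreated and 176, 187 and 173 treated, against 78.7 to 129 and 110 to 138. Its departure was 0.57 and then 0.30, and the other annotated Lrif1 promoter, NM_001039478, departed by 0.11 and 0.10.

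Anxa5, which encodes the phospholipid-binding annexin A5, and 1810062G17Rik are divergent genes whose intervals overlap by 351 of 400 bp, so they share most of their reads and count as 1 region. Anxa5 gave 147, 165 and 135 RPM untreated and 143, 145 and 151 treated, against 76.4 to 99.3 and 74.1 to 115, and departed by 0.50 and 0.38. Cth, the cystathionine gamma-lyase of cysteine synthesis, gave 160, 142 and 147 RPM and then 122, 128 and 118, against 70.3 to 101 and 54.1 to 110. Its departure was 0.48 and 0.34, and in the treated set the lowest Kdm2a-CXXC library stood just above the highest of the others.

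On the other side, Stmn2, which encodes a neuronal regulator of microtubules, departed farthest downwards. Its Kdm2a-CXXC libraries gave 22.4, 17.5 and 15.8 RPM untreated and 17.4, 19.4 and 15.3 treated, against 38.2 to 61.7 and 24.9 to 48.9 RPM in the other lines. Every Kdm2a-CXXC library was lower than every other library at both treatments, with departures of −1.59 and −1.43. Between 28 and 53 reads per library lay behind these values.

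Slc16a4, of the monocarboxylate transporter family, gave 22.9, 18.8 and 9.29 RPM untreated and 22.8, 16.1 and 13.1 treated, against 27.6 to 45.4 and 25.8 to 51.6. Again no library overlapped, and the departures were −1.36 and −1.31. Stmn2 and Slc16a4 were thus below the other lines at both treatments on a chromosome that was raised around them.

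The remaining members on this side were less steady. For Dclk1, a doublecortin-like kinase of neurons, the promoter of NM_001195540 gave 17.5, 24.5 and 19.8 RPM untreated but 32.2, 38.4 and 37.1 treated, so its departure went from −1.04 to −0.31. The other lines spanned 18.7 to 51.1 and 21.6 to 62.2 RPM and overlapped it at both treatments. Its other promoter, NM_001195538, departed by −0.24 untreated and −0.78 treated. Pde4dip, which encodes the phosphodiesterase-binding protein myomegalin, gave 20.6, 16.2 and 20.2 RPM and then 20.8, 25.1 and 16.4 at NM_001039376, against 22.7 to 37.6 and 20.2 to 38.7, with departures of −0.81 and −0.63. Its more accessible promoter, NM_178080, kept to the chromosome at 0.21 and 0.07. The 2 promoters of each of Lrif1, Dclk1 and Pde4dip thus differed in the size of their departure, and those of Lrif1 and Dclk1 had the same sign.

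S100a13 and S100a1, calcium-binding proteins of the S100 family, have intervals that overlap by 296 bp and count as 1 region. S100a13 gave 19.8, 22.1 and 19.4 RPM untreated and 22.8, 15.7 and 25.6 treated, against 25.5 to 38.3 and 20.2 to 31.5. Its departure was −0.91 and −0.54, and the treated libraries overlapped those of the other lines.

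**Figure D4:**
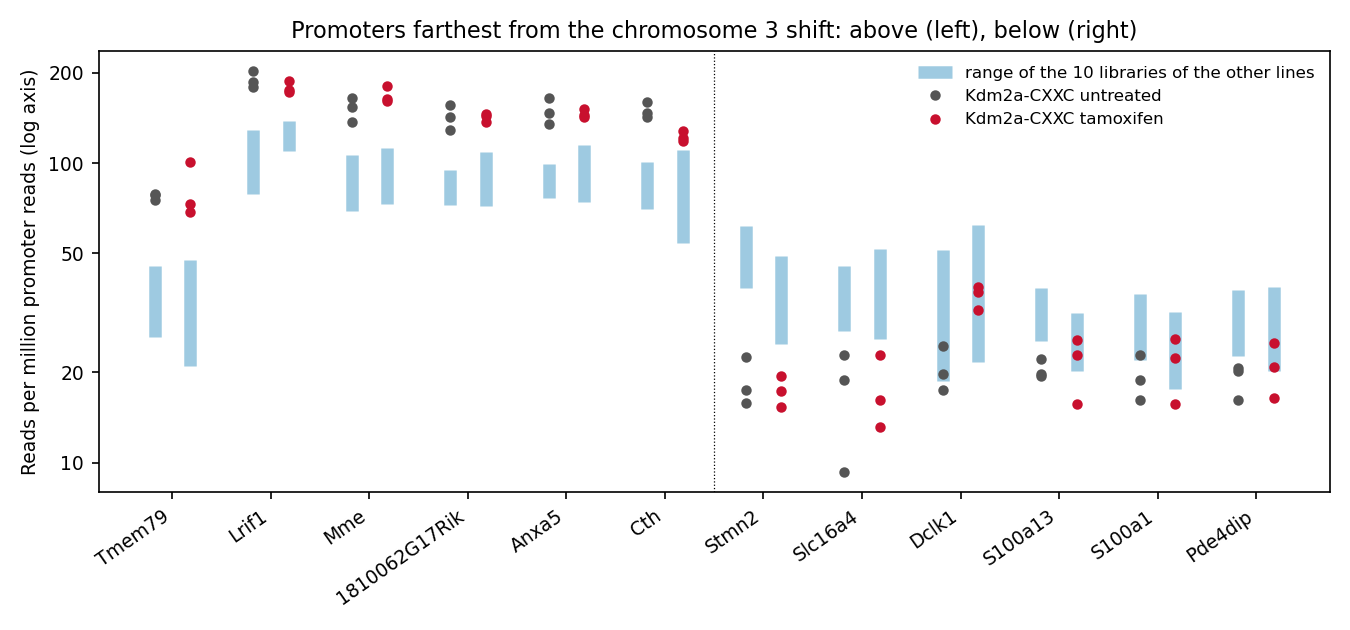
Promoter accessibility (RPM, log axis) at the 6 promoters farthest above (left) and the 6 farthest below (right) the chromosome 3 shift in Kdm2a-CXXC; points are single Kdm2a-CXXC libraries and bars the range of the 10 libraries of the other lines. The choice used the untreated points; in the treated points the 6 promoters on the left and Stmn2 and Slc16a4 on the right stay clear of the other lines.

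In the other 3 lines the farthest member on each side departed by less than Tmem79 or Stmn2 did in Kdm2a-CXXC. Upwards, Dclk1, Slc16a4 and Stmn2 in those lines exceeded every Kdm2a-CXXC member except Tmem79. Part of the order in those lines came from Kdm2a-CXXC, which is in their reference. Above the chromosome median in Kdm2a/b-CXXC stood Dclk1 (0.78 untreated, 0.63 treated) and Stmn2 (0.70, 0.53), and in Kdm2b-CXXC Slc16a4 (0.70, 0.71) and Stmn2 (0.64, 0.67). Below it in Kdm2a/b-CXXC stood Lmna, a nuclear lamina gene, at −0.52 and −0.11, and Wnt2b, a Wnt ligand, at −0.47 and 0.18. In Kdm2b-CXXC these were S100a11 (−0.49, −0.34) and Tmem144 (−0.48, −0.15). In Kdm2a/b-JmjC, Tmod4, a tropomodulin of muscle, stood above at 0.47 and 0.40 and the ephrin gene Efna1 at 0.45 and −0.22, with Gm9054 (−0.64, −0.30) and the glutathione transferase gene Gstm2 (−0.56, −0.07) below. Departures that did not keep their sign in the treated cells were thus those of Wnt2b and Efna1.

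Gene groups on the chromosome are set beside all 824 members, which had a median of 0.32 untreated and 0.31 treated, with 82.0% and 83.5% above the median of the other chromosomes. The lists were drawn up with earlier results of these data known, and differences between lists were not tested. Among stem cell and chromatin regulators 15 of 17 promoters that passed the filter were above the median of the other chromosomes untreated and 16 after tamoxifen, with list medians of 0.43 and 0.39. Sox2, the pluripotency factor, gave 132, 115 and 109 RPM untreated and 122, 137 and 105 treated, against 80.0 to 122 and 74.9 to 133 in the other lines, so the groups overlapped and its shift was 0.36 and 0.27. Tet2, a DNA demethylase gene, gave 96.1, 91.9 and 99.0 RPM and then 95.7, 116 and 107, against 50.7 to 100 and 56.7 to 75.6, a shift of 0.64 and 0.84. The signalling inhibitor gene Spry1 stood at 0.54 and 0.22. Fgf2, a growth factor, gave 17.1, 18.8 and 21.8 RPM untreated within the 14.5 to 32.9 of the other lines, a shift of −0.12, and −0.12 again after tamoxifen.

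All 8 promoters of the cell cycle and survival list were above at both treatments, with medians of 0.40 and 0.45. Ccna2, the cyclin A gene, gave 164, 156 and 179 RPM and then 166, 170 and 157, against 103 to 133 and 105 to 133, with no overlap. Cenpe, a kinetochore motor, stood at 0.42 and 0.38, Mcl1, a survival factor, at 0.25 and 0.44, and the GTPase gene Nras at 0.35 and 0.56. Of the housekeeping list 17 of 17 promoters were above untreated and 16 treated, with medians of 0.39 and 0.36. The ribosomal protein genes Rps3a1 (0.38, 0.41) and Rpl22l1 (0.72, 0.51) and the proteasome genes Psmb4 (0.22, 0.03) and Psmd4 (0.35, 0.37) show the range.

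Developmental transcription factors had 11 of 17 promoters above untreated, 12 treated and medians of 0.30 and 0.17. Tbx15 stood at 0.34 and 0.12, and Mecom at −0.05 and 0.17 at its more accessible promoter. Signalling ligands and receptors had the lowest median, 0.07 untreated and 0.12 treated, with 10 and 9 of 17 above. Wnt2b stood at 0.55 and 0.12, the Wnt antagonist gene Dkk2 at 0.06 and −0.16, and Egf at −0.21 and −0.01. The 3 promoters of Bmpr1b, a receptor for bone morphogenetic proteins, ranged from −0.38 to 0.11 untreated. Median accessibility was 34.5 RPM in the signalling list and 24.7 in the developmental list, against 100 in the cell cycle and 95.4 in the housekeeping list. The least accessible lists, described next, did not have the lowest medians. The part of accessibility in the list medians was not tested.

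Of the 46 promoters of the epidermal differentiation complex, a cluster of skin barrier genes, 17 passed the filter on low values, with 12 of these above untreated and 12 treated. Their median was 0.35 at both treatments. Their differences ranged from −0.59 to 1.67 untreated and rest on few reads. Of 28 promoters in tandem gene families 16 passed, with 10 above untreated and 14 treated and medians of 0.47 and 0.31. Median accessibility was 4.25 RPM in the epidermal list and 7.26 in the tandem families, the lowest of all lists. The 3 histone cluster 2 promoters (H2ac21, H4c14 and H2bc18) stood at 0.33, 0.35 and 0.36. Histone and Gstm copies resemble each other closely, and the authors removed multi-mapping reads, which can affect the values of such copies.

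The chromosome 3 level of treated and untreated libraries overlapped in each line. For this level, each member was divided by its untreated mean in the same line, and the median log2 value over members was taken relative to that over the other chromosomes. In Kdm2a-CXXC the untreated libraries stood at 0.041, −0.013 and −0.022 and the treated ones at 0.017, 0.017 and −0.030, a difference of −0.0005 (exact permutation test, two-sided, p = 1, adjusted p = 1 over the 4 lines). For Kdm2a/b-JmjC the difference was 0.017, with an exact p of 0.7 (adjusted 0.933). For Kdm2b-CXXC it was −0.005, with an exact p of 0.6 (adjusted 0.933), and for Kdm2a/b-CXXC −0.009, with an exact p of 0.229 (adjusted 0.914). With 3 libraries against 3 the smallest p this test can give is 0.1, and with 4 against 4 it is 0.0286. On the spike-in scale, without subtracting the other chromosomes, the differences were −0.17 for Kdm2a-CXXC cells, −0.19 for Kdm2a/b-JmjC cells, 0.08 for Kdm2a/b-CXXC cells and 0.09 for Kdm2b-CXXC cells. The median tamoxifen difference of promoters elsewhere on that scale was −0.18, −0.21, 0.09 and 0.10 in the same order.

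**Figure D5:**
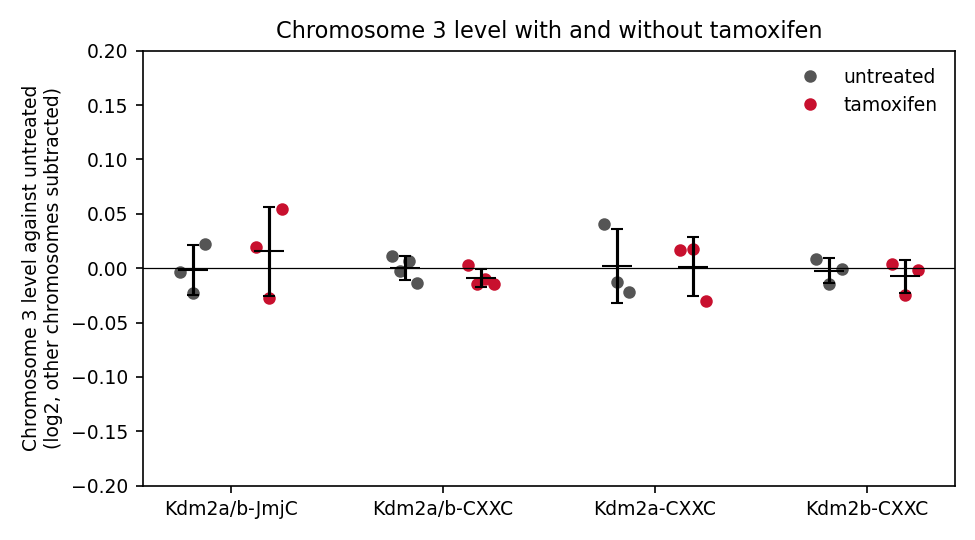
Chromosome 3 level in each library (points) as a log2 ratio to the untreated mean of its line with the other chromosomes subtracted, with group means and SD (bars); n is 3 per group and 4 in Kdm2a/b-CXXC. Treated and untreated libraries overlap in every line, and all lie between −0.030 and 0.054.

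By promoter, limma called 0 members in any line when an adjusted p below 0.05 and a change of more than 1.4-fold were required. It tested 914 members for Kdm2a-CXXC, 819 for Kdm2a/b-JmjC, 792 for Kdm2a/b-CXXC and 865 for Kdm2b-CXXC. Over all promoters the same rule called 0%, 0%, 0.122% and 0.00558% in that order. edgeR's quasi-likelihood test and DESeq2 on the recovered reads called 0 members in each line as well. At an unadjusted p under 0.05 limma gave 39 members (4.76%) in Kdm2a/b-JmjC, where 5.64% of all promoters passed, and 71 (8.96%) in Kdm2a/b-CXXC, where 9.71% did. It gave 75 (8.21%) in Kdm2a-CXXC against 6.16%, and 67 (7.75%) in Kdm2b-CXXC against 7.73%. With 0 members called, the gene lists above could hold none, so this says nothing further about the lists.

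Since none passed, the 2 members with the smallest p in each line are given, with limma's Benjamini-Hochberg adjusted p. In Kdm2a-CXXC these were Dclk1 and Qrfpr, a neuropeptide receptor gene. Dclk1 differed by 0.78 ± 0.20 (log2, SE; adjusted p = 0.655), and it is also among the members picked for a low untreated value. Qrfpr gave 17.1, 21.8 and 19.8 RPM untreated and 37.7, 28.0 and 39.3 treated, a difference of 0.80 ± 0.21 (SE, limma adjusted p = 0.655). The groups did not overlap, and neither difference passed.

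In Kdm2b-CXXC, Sox2ot, a non-coding RNA gene that overlaps Sox2, gave 23.4, 19.9 and 20.8 RPM untreated and 11.3, 7.96 and 11.6 treated, a difference of −0.996 ± 0.26 (SE, limma adjusted p = 0.164). Mindy1, a deubiquitinase gene, gave 43.3, 47.9 and 48.6 RPM and then 61.1, 70.1 and 73.6, a difference of 0.54 ± 0.14 (SE, limma adjusted p = 0.151). Both pairs of groups were apart, yet neither passed over all promoters. In Kdm2a-CXXC the Sox2ot values were 3.59, 4.96 and 7.27 RPM untreated and 10.4, 11.4 and 9.82 treated, from 8 to 24 reads per library.

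In Kdm2a/b-CXXC, Kirrel, a cell adhesion gene, gave 53.8, 83.4, 65.8 and 78.3 RPM untreated and 56.4, 52.6, 35.2 and 49.6 treated, a difference of −0.53 ± 0.15 (SE, limma adjusted p = 0.103). Shc1, a signalling adaptor gene, gave 112, 103, 122 and 77.6 RPM and then 140, 126, 138 and 122, a difference of 0.36 ± 0.11 (SE, limma adjusted p = 0.132). In Kirrel the groups overlapped and in Shc1 they met at 122 RPM without overlapping. In Kdm2a/b-JmjC, Kcnmb2, a potassium channel subunit gene, went from 1.87, 4.30 and 4.59 RPM to 14.5, 10.5 and 10.5, with 3 to 23 reads per library, a difference of 1.53 ± 0.44 (SE, limma adjusted p = 0.852). Mccc1, an enzyme gene of leucine breakdown, went from 45.6, 61.7 and 60.2 RPM to 72.4, 90.1 and 80.5, a difference of 0.54 ± 0.16 (SE, limma adjusted p = 0.868).

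Only on the spike-in scale was a member called, and only in Kdm2a/b-JmjC. It was Fstl5, a secreted follistatin-like protein gene, with 123, 111 and 107 calibrated reads untreated and 54.5, 71.3 and 82.9 treated, a difference of −0.71 ± 0.19 (log2, SE, limma adjusted p = 0.0494). The same rule called 0.373% of all promoters on that scale, beside the median of −0.21 over promoters elsewhere. Scaled to promoter totals, Fstl5 gave 68.1, 58.3 and 59.7 RPM and then 32.1, 48.0 and 53.0 and was not called.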

How the data were processed

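The authors aligned paired-end cATAC-seq reads with Bowtie2 to a joint mm10 and dm6 genome, and removed multi-mapping reads, duplicates and mitochondrial reads. The deposited values, in 4 tables of 1 line each, are a signal: mouse reads per 400 bp promoter interval divided by a spike-in size factor. The comparison columns deposited by the authors (mean level, log2 fold changes, errors, statistics and p-values) were not used, and no column of per-sample values was left unused (0). Whole reads were recovered from the steps between values (100% whole in each library, with size factors of 0.718 to 1.41). Input genomic DNA (26 of 52 samples) was not analysed here.

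Reads were scaled to 1000000 promoter reads per library, with a mean of at least 5 RPM over the 8 groups required between lines, and a pseudocount of 1. Treated and untreated cells were compared within a line by limma 3.58.1 with a mean-variance trend after the filterByExpr filter of edgeR 4.0.16, with Benjamini-Hochberg adjustment over all promoters tested, and by exact permutation for the chromosome 3 level. edgeR and DESeq2 1.42.0 on recovered reads were alternatives. The limma and edgeR fits at the main settings were first checked on simulated reads with planted changes, and DESeq2 was not. Depth was 1.49 to 3.03 M promoter reads per library, and reads without molecular identifiers carry more than counting error.

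The members, gene lists and tests were chosen with earlier results of these data known. Symbols came from RefSeq for GRCm38.p6, which is the build mm10 (1031 of 1036 members matched), and 56 symbols had several promoters. The intervals of 92 members overlapped another and share reads. Named promoters were the 6 farthest above and 6 below the chromosome 3 median in untreated Kdm2a-CXXC at a mean of at least 25 RPM, 2 on each side in each other line, the 2 with the smallest p after tamoxifen where none was called, the 5 most accessible, and the first 4 of each list found. Some items that this rule names are not reported here. Fstl5 and Sox2ot in Kdm2a-CXXC, Actl6a and Bcl10 as examples, and the alternative promoters were singled out after their values were seen. No member was found under the list names Setdb1, Cyr61, Anapc13, Mad2l1, Rps27, Atp5f1, Flg, Loricrin or Hrnr (Ccn1 and Atp5pb are current symbols of Cyr61 and Atp5f1). Kdm2a and Kdm2b lie on other chromosomes, and their promoter intervals do not check the deletion.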

Additional observations from a re-analysis of the deposited data

Results flagged for a closer look

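Sample values were screened in the 2 groups of 4 libraries, in 80 combinations of group and measure, of which chance alone singles out about 1 in 20. The screen flagged 2 of the 80, fewer than that rate gives, so nothing further is read from them. At Stmn2 untreated Kdm2a/b-CXXC replicate 3 was flagged, with 61.7 RPM against 50.4, 50.9 and 51.7 in the others. At Mindy1 tamoxifen-treated Kdm2a/b-CXXC replicate 1 was flagged, with 57.5 RPM against 61.2, 61.2 and 61.7, a small gap. The share of reads on chromosome 3 and its shift held no flagged library.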

How the results depend on the processing

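The chromosome 3 shift in Kdm2a-CXXC kept its direction under every setting tried. Without any 1 library it ranged from 0.29 to 0.34 untreated and from 0.30 to 0.33 after tamoxifen, and with all 4 lines as the reference, which then holds the line itself, it was 0.24 and 0.23. On that reference Kdm2a/b-JmjC stood at −0.086 untreated, Kdm2a/b-CXXC at −0.069 and −0.079, and Kdm2b-CXXC at −0.067 and −0.082. From the ratio of summed shares Kdm2a/b-CXXC stood at −0.095 treated and Kdm2b-CXXC at −0.076 and −0.080. Without any 1 library the treated shift ranged from −0.11 to −0.091 for Kdm2a/b-CXXC and from −0.12 to −0.093 for Kdm2b-CXXC. In windows of 25 promoters the Kdm2a-CXXC values ran from 0.15 to 0.44 untreated and from 0.14 to 0.42 treated, and the lowest window of 100 promoters was 0.28 and 0.26. In the treated libraries 4 members lay clear below all other lines in Kdm2a-CXXC (0.485%, with 4.36% over all promoters). In Kdm2a/b-JmjC 3 lay above (0.364%), and in Kdm2a/b-CXXC 2 above and 2 below (0.243% each). The treated share over all promoters is not given for these 2 lines, so nothing is read from their counts. With TMM factors 265 lay above in Kdm2a-CXXC, where promoter totals gave 218, and 0 in Kdm2a/b-CXXC. No share over all promoters is given on that scaling.

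The tamoxifen difference in level changed sign on the spike-in scale in Kdm2a/b-JmjC (−0.19), Kdm2a/b-CXXC (0.079) and Kdm2b-CXXC (0.092), where the other chromosomes are not subtracted. In Kdm2a-CXXC it was 0.00016 with no filter, 0.00051 with a pseudocount of 0.25 and 0.00060 with a pseudocount of 4. Without any 1 library the Kdm2a/b-JmjC difference lay between −0.0049 and 0.039, that of Kdm2a-CXXC between −0.014 and 0.017 and that of Kdm2b-CXXC between −0.011 and 0.0038. Calls stayed at 0 in all lines under every setting except the spike-in scale, which gave 1 in Kdm2a/b-JmjC. With the replicate number as a block the calls were again 0. The blocked test of the level cannot pass, since its smallest p is 0.25 with 3 pairs and 0.125 with 4, the values it gave in Kdm2b-CXXC and Kdm2a/b-CXXC. The numbers do not pair the libraries by the labels. Same-number deviations correlated by 0.061, 0.113 and 0.108 in Kdm2a/b-JmjC, and there and in Kdm2b-CXXC every library correlated best with its own number, which is a hint from the data only. With 3 libraries against 3 the level test cannot reach 0.05, and weak promoters rest on few reads.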
